A study of Mus musculus with 8 samples.

Results

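FOXO factors and genes that they induce were followed in the ventral prostate of mice overexpressing a constitutively active p110 beta, the catalytic subunit beta of PI3-kinase. The set held 10 genes chosen by name, the factors Foxo1 and Foxo3 and the induced genes Sesn1, Sesn3, Ccng2, Txnip, Bcl6, Cited2, Gadd45a and Pnrc1, and every probe set that the platform annotation gives to exactly 1 of them was used. This gave 22 of the 22626 probe sets tested, for 10 of the 12393 genes named. The transgenic group had 4 arrays of ventral prostate from FVB mice aged 20 weeks, described as mouse prostatic intraepithelial neoplasia, a lesion of the gland's epithelium. The wild type group had 4 arrays of normal ventral prostate of the same strain and age. The labels name no promoter for the transgene, no founder line and no drug treatment, and they do not say whether each array holds 1 animal or a pool, so p-values measure the spread between arrays, part of which may be technical. The mRNA of the transgene itself was not analysed here.

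FOXO proteins are forkhead transcription factors at the end of the insulin and PI3-kinase pathway. When PI3-kinase is active, the kinase AKT phosphorylates them, 14-3-3 adaptor proteins hold them in the cytoplasm, and their target genes lose an activator. When the pathway is quiet, FOXO proteins enter the nucleus and turn on genes of cell cycle arrest, stress resistance, autophagy and insulin sensitivity. This control acts on the protein, which arrays of mRNA do not measure. The comparison asks how the mRNA of the factors and of their known targets stood in glands in which PI3-kinase was made active.

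The values are log2 expression values made with RMA, a method that corrects background, equalises the distribution over arrays and summarises the probes of each probe set. Array medians lay between 5.40 and 5.51, and a mean below them may be set by background. The prostate marker Hoxb13 averaged 10.25 ± 0.11 in transgenic and 10.39 ± 0.25 in wild type glands (SD, n = 4 each), and 6 of 6 seminal vesicle markers lay below every array median in both groups. Of 9 luminal epithelial markers 5 rose and 0 fell, and of 10 basal markers 0 rose and 5 fell. Of 12 smooth muscle markers 3 fell, and of 12 fibroblast markers 2 fell, with 0 higher in either list. Among all genes 11.0% passed the same test in limma, with 5.99% higher and 4.98% lower. In bulk tissue, fewer cells of a type and less RNA per cell cannot be told apart.

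The members moved in both directions. They were chosen with earlier results of these data known, so their counts are descriptive. Of the 22 probe sets 2 rose, 4 fell and 16 did not pass at an adjusted p under 0.05, against 5.48% of all probe sets higher and 4.36% lower. Together 6 of the 22, dim ones included, were called, against 9.84% of all probe sets and 16.6% of those brighter than every array median. These 6 belonged to 4 genes. Foxo1 fell at 2 of its 4 probe sets and Cited2 at 2 of 2, while Foxo3 rose at 1 of 3 and Txnip at 1 of 2. Sesn1, Sesn3, Ccng2, Bcl6, Gadd45a and Pnrc1 had no probe set past the threshold. With the brightest probe set standing for each gene, Foxo3 rose, Cited2 fell and 8 did not pass, and 8 of 10 had an unadjusted p under 0.05, against 22.8% of all genes. Leaving out 1 array moved the number of probe sets that rose to 5 without wild type array 1, to 3 without transgenic array 4 and to 1 without any other array, with 3 or 4 lower throughout. At the level of arrays, the groups did not overlap at 9 of the 22 probe sets, against 15.0% of all probe sets. An unadjusted p under 0.05 was found at 14 of 22 member probe sets, against 21.0% of all. The median log2 fold change of the 10 genes was 0.27, with a median of -0.04 over all genes.

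**Figure D1:**
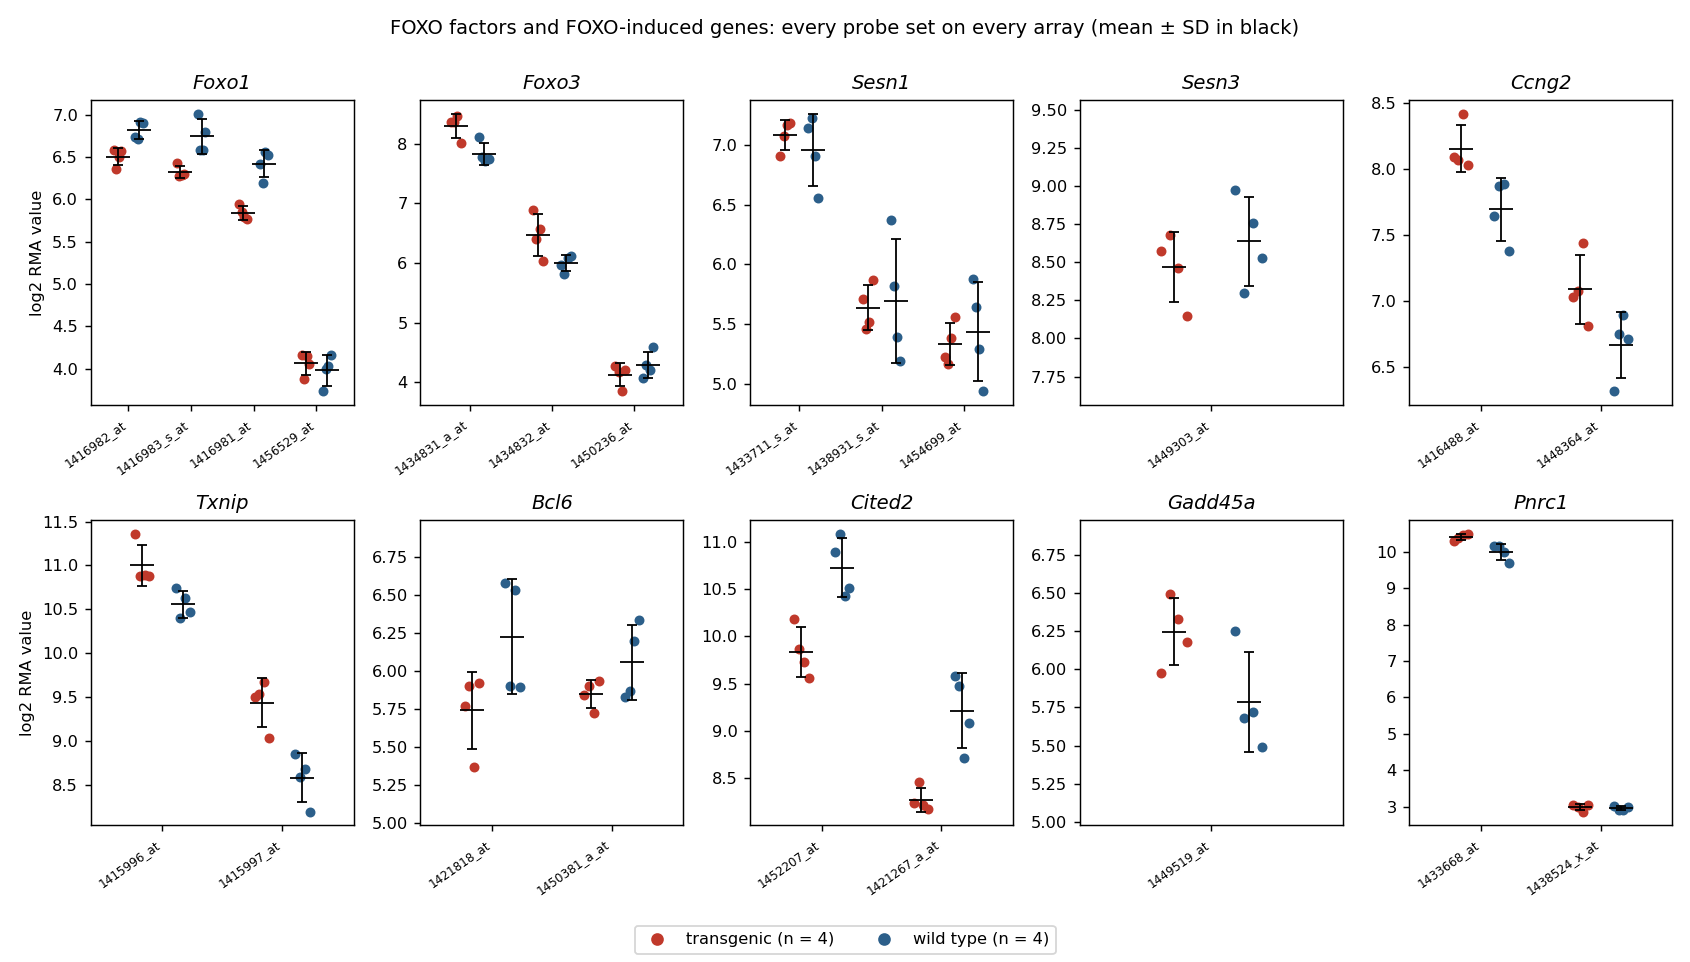
Log2 RMA value (vertical axis) of every probe set of the 10 genes on every array, with transgenic arrays in red to the left of wild type arrays in blue, and the mean and SD of 4 arrays in black. The scale differs between panels. Both Cited2 probe sets are lower and both Txnip probe sets higher on every transgenic array, and 3 of 4 Foxo1 probe sets are lower on every transgenic array.

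Foxo1 mRNA was lower in transgenic glands at 2 of the 3 probe sets that stood above the array medians. Probe set 1416981_at read 5.95, 5.85, 5.80 and 5.76 on the transgenic arrays, against 6.41, 6.20, 6.56 and 6.52 on the wild type arrays. The lowest wild type array thus lay above the highest transgenic array. The log2 fold change was -0.58 ± 0.11 (SE, limma adjusted p = 0.00454), a level 1.5-fold higher in wild type. Probe set 1416983_s_at, whose name marks it as shared between transcripts, read 6.43, 6.28, 6.28 and 6.30 in transgenic glands and 7.00, 6.59, 6.58 and 6.80 in wild type glands. It fell by 0.42 on the log2 scale (adjusted p = 0.0383), again with no overlap. The brightest, 1416982_at, read 6.58, 6.36, 6.50 and 6.57 in transgenic glands and 6.74, 6.71, 6.91 and 6.91 in wild type glands. Its groups did not overlap either, but its change of -0.31 ± 0.10 (SE) missed the threshold (adjusted p = 0.0707). The remaining probe set, 1456529_at, averaged 4.06 in transgenic and 3.98 in wild type glands, below every array median, and gave no call.

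Only 1416981_at of the Foxo1 probe sets passed without each array in turn, with adjusted p up to 0.0208. The call of 1416983_s_at was lost without transgenic array 2, 3 or 4 or wild type array 1 or 4, with adjusted p up to 0.112. The mean of the 4 Foxo1 probe sets passed, at -0.31 (adjusted p = 0.0382).

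Foxo3 mRNA was higher in transgenic glands at 1 of its 2 brighter probe sets. Probe set 1434831_a_at read 8.36, 8.36, 8.45 and 8.0 in transgenic glands, against 8.11, 7.78, 7.70 and 7.73 in wild type glands. Transgenic array 4 lay below wild type array 1, so the groups overlapped by that pair. The log2 fold change was 0.46 ± 0.13 (SE, limma adjusted p = 0.0445), a 1.38-fold difference. Probe set 1434832_at read 6.88, 6.40, 6.57 and 6.03 in transgenic and 5.97, 5.82, 6.08 and 6.11 in wild type glands. Its change of 0.48 ± 0.16 (SE) missed the threshold (adjusted p = 0.0942), with transgenic array 4 inside the wild type range. It passed without transgenic array 4, at 0.62 (adjusted p = 0.0245). The dim probe set 1450236_at averaged 4.13 in transgenic and 4.29 in wild type glands and did not pass.

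The Foxo3 call rests close to the threshold. It was lost without transgenic array 1, 2 or 3 or wild type array 2, 3 or 4, with adjusted p up to 0.137 and log2 fold changes from 0.41 to 0.45. It was also lost with the mean of the 3 probe sets, at 0.26 (adjusted p = 0.141), and with a variance trend and robust prior (adjusted p = 0.0521).

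Foxo1 and Foxo3 were also set against each other within each array, on the brightest probe set of each. The log2 difference Foxo1 minus Foxo3 was -1.78, -2.00, -1.95 and -1.43 on the transgenic arrays and -1.37, -1.07, -0.78 and -0.83 on the wild type arrays. All 4 transgenic values lay below all 4 wild type values, and the groups differed by -0.78 (two-sided exact permutation p = 0.0286, the smallest that 70 assignments can give). Adjusted over the 2 pairs of paralogs tested, p was 0.0571, above the threshold. With so few arrays, a lower adjusted p was possible only if the other pair also reached the smallest p. The difference between 2 probe sets can bear on unequal change only, and not on which mRNA was more abundant.

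The mRNAs of another FOXO factor and of regulators of FOXO proteins were looked up as well. Foxo4, another member of the family, averaged 5.86 ± 0.17 in transgenic and 5.67 ± 0.24 in wild type glands (SD, n = 4 each) and did not pass. Of 26 genes for proteins that modify, bind or degrade FOXO factors, 1 rose, 1 fell and 24 did not pass by the brightest probe set, against 11.0% of all genes called, with a median log2 fold change of 0.07. Skp2, the substrate receptor of a ubiquitin ligase that marks FOXO1 and the inhibitor p27 for degradation, averaged 7.09 ± 0.18 in transgenic and 5.53 ± 0.25 in wild type glands (SD, n = 4 each). It rose by 1.56 on the log2 scale (adjusted p = 3.24e-05), and 5 of its 6 probe sets passed in that direction. Ywhah, a 14-3-3 adaptor, averaged 10.13 ± 0.13 in transgenic and 10.83 ± 0.43 in wild type glands (SD, n = 4 each) and fell by 0.71 (adjusted p = 0.0307). The Ywhah call was lost without transgenic array 2, 3 or 4 or wild type array 3 or 4, with adjusted p up to 0.0982 and changes from -0.73 to -0.58. For Ywhab, another 14-3-3 adaptor, the brightest probe set stood at 0.21 and did not pass, but 1 of its 6 probe sets passed as higher. Akt1 and Akt2, kinases that inactivate FOXO proteins, stood at log2 fold changes of 0.17 and -0.09, which did not pass. The kinase genes Sgk1 and Sgk3, of the same list, stood at -0.51 (adjusted p = 0.0503) and 0.04. Neither passed, and Sgk1 missed the threshold narrowly.

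Promoter sequence was read for all 10 genes, the factors included. Windows of 300 bases, 250 before and 50 after a gene's start, were taken from RefSeq on GRCm38.p6, where 12 windows matched the 10 genes. They were searched on both strands for GTAAACA, the core of the element that FOXO proteins bind, and for CAAAACAA, a form of the insulin response element, and each window held at most 1 match. Shown are the 3 windows that held a match, in capitals, and that of Cited2, which held none, shown as the induced gene that fell.
Txnip, chr3:96557707-96558006, plus strand: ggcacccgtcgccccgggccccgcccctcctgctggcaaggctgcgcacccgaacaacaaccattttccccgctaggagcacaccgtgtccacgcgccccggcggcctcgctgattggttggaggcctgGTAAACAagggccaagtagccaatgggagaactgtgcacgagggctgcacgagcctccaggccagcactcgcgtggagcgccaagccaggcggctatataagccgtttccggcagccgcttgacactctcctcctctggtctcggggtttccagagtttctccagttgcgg
Ccng2, chr5:93267323-93267622, plus strand: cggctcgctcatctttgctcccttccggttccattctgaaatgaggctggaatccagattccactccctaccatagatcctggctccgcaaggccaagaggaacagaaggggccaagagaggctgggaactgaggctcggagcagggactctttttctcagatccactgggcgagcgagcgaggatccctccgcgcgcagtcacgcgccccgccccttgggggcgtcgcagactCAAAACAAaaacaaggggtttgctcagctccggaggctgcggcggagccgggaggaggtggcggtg
Sesn1, chr10:41810324-41810623, plus strand: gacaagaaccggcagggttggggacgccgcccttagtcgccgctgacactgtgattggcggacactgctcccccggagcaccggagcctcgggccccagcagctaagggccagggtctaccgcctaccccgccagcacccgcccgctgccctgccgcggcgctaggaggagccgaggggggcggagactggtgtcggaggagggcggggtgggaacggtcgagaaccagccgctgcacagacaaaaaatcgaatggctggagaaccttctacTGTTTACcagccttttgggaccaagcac
Cited2, chr10:17722978-17723277, plus strand: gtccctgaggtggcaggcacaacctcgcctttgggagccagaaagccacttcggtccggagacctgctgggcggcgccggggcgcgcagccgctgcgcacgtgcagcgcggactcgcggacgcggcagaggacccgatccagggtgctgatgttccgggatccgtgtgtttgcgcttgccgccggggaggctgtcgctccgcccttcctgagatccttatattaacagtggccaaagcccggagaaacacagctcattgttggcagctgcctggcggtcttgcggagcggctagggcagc
The Txnip match began at base 130 of the window, that of Ccng2 at base 235 and that of Sesn1, read as TGTTTAC on the plus strand, at base 273, after the gene's start. GTAAACA was found in 2 of the 12 member windows, against 3.65% of 32851 windows of the same length over all genes, and CAAAACAA in 1 of 12, against 2.51%. A match describes letters only, and a window without one says nothing about FOXO binding elsewhere.

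Txnip, which encodes a thioredoxin-binding arrestin that limits glucose uptake, was higher in transgenic glands. Probe set 1415997_at read 9.50, 9.54, 9.68 and 9.03 in transgenic glands, against 8.86, 8.59, 8.68 and 8.19 in wild type glands, with no overlap. It rose by 0.86 ± 0.17 on the log2 scale (SE, limma adjusted p = 0.00698), or 1.81-fold, and passed without each array in turn, with adjusted p up to 0.0281. The brighter probe set 1415996_at read 11.36, 10.88, 10.89 and 10.88 in transgenic and 10.74, 10.40, 10.62 and 10.46 in wild type glands. Here too every transgenic array was above every wild type array, but the change of 0.44 ± 0.13 (SE) missed the threshold (adjusted p = 0.0587). With wild type array 1 left out it passed, at 0.51 (adjusted p = 0.0377). The mean of both probe sets rose by 0.65 (adjusted p = 0.00662).

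The genes next to Txnip in its family and its control were looked up beside it. Of 5 genes of the glucose-sensing Mondo and MLX factors, which are known to drive Txnip, and their targets, 2 rose and 0 fell, against 5.99% of all genes higher and 4.98% lower. Mlxip and Mlxipl, the glucose-sensing factors themselves, stood at -0.37 (adjusted p = 0.0756) and -0.21 and did not pass. Mlx, the shared partner of these factors, averaged 7.84 ± 0.22 in transgenic and 7.27 ± 0.10 in wild type glands (SD, n = 4 each) and rose by 0.57 (adjusted p = 0.0119). Arrdc4, the alpha-arrestin most like Txnip, averaged 6.30 ± 0.03 in transgenic and 5.76 ± 0.18 in wild type glands (SD, n = 4 each) and rose by 0.54 (adjusted p = 0.00735). For each, a second probe set did not pass, at 0.31 for Mlx and 0.15 for Arrdc4. By the brightest probe set, Arrdc4 was the 1 gene past the threshold among the 12 measured paralogs of the members. Sesn2 did not pass by that probe set, at -0.11, but 1 of its 2 probe sets passed as lower.

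Cited2, which encodes a protein that binds the coactivators CBP and EP300 and thereby restrains HIF-1, fell in transgenic glands at both of its probe sets. Probe set 1452207_at read 10.19, 9.87, 9.73 and 9.56 in transgenic glands, against 10.89, 11.08, 10.42 and 10.51 in wild type glands. It fell by 0.89 ± 0.17 on the log2 scale (SE, limma adjusted p = 0.00639), a level 1.85-fold higher in wild type. Probe set 1421267_a_at read 8.24, 8.46, 8.22 and 8.18 in transgenic glands and 9.59, 9.47, 8.71 and 9.09 in wild type glands, and fell by 0.94 ± 0.17 (SE, adjusted p = 0.00500). The groups did not overlap at either probe set, and both passed without each array in turn, with adjusted p up to 0.0264. Its paralog Cited1 averaged 4.28 ± 0.11 in transgenic and 4.83 ± 0.35 in wild type glands (SD, n = 4 each), below every array median, and missed the threshold (adjusted p = 0.0504).

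The growth arrest genes Ccng2 and Gadd45a had positive fold changes that did not pass. Ccng2, an unconventional cyclin linked to cell cycle arrest, read 8.10, 8.07, 8.42 and 8.03 in transgenic glands at probe set 1416488_at, against 7.65, 7.87, 7.89 and 7.38 in wild type glands. The groups did not overlap, and the change was 0.46 ± 0.14 (SE, limma adjusted p = 0.0574). Its other probe set, 1448364_at, gave 0.42 ± 0.16 (SE, adjusted p = 0.127), with transgenic array 4 at 6.81, below wild type array 3 at 6.89. Gadd45a, a stress-induced growth arrest gene, read 5.98, 6.49, 6.33 and 6.18 in transgenic and 6.25, 5.68, 5.72 and 5.49 in wild type glands, a change of 0.46 ± 0.17 (SE, adjusted p = 0.120). Wild type array 1 alone overlapped the transgenic range. Without it Gadd45a passed, at 0.61 (adjusted p = 0.0138).

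Pnrc1, a proline-rich coregulator of nuclear receptors, read 10.30, 10.38, 10.46 and 10.47 in transgenic glands at probe set 1433668_at, against 10.15, 10.17, 9.99 and 9.68 in wild type glands. All transgenic arrays lay above all wild type arrays, within a narrow transgenic range of 0.17, and the change of 0.41 ± 0.12 (SE) missed the threshold (adjusted p = 0.0557). With wild type array 1 left out it passed, at 0.46 (adjusted p = 0.0400). Its other probe set, 1438524_x_at, averaged 2.98 in transgenic and 2.96 in wild type glands, far below every array median.

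Bcl6, a transcriptional repressor best known from germinal centre B cells, had negative fold changes that did not pass. Probe set 1421818_at read 5.77, 5.90, 5.37 and 5.92 in transgenic glands and 6.58, 5.90, 6.53 and 5.90 in wild type glands. Wild type arrays 1 and 3 stood above all others, while arrays 2 and 4 lay at the transgenic level. The change of -0.48 ± 0.19 (SE, adjusted p = 0.146) and that of -0.21 ± 0.13 at 1450381_a_at (SE, adjusted p = 0.413) did not pass. At 1450381_a_at the high wild type arrays were 3 and 4 instead, at 6.20 and 6.33. Of 6 B and plasma cell markers none passed in limma, 0 had an unadjusted p under 0.05 and 5 lay below every array median in both groups, with log2 values of the markers' summed linear levels from 6.96 to 7.98 in transgenic and from 6.75 to 8.44 in wild type glands. The part of B cells in the Bcl6 values was not tested.

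The sestrin genes Sesn1 and Sesn3 gave no call. Sesn1 encodes a leucine-binding inhibitor of mTORC1 that is also induced by p53. Its brightest probe set, 1433711_s_at, read 6.91, 7.07, 7.17 and 7.19 in transgenic and 7.14, 7.23, 6.91 and 6.56 in wild type glands, a change of 0.13 with a 95% interval from -0.19 to 0.44. The other Sesn1 probe sets, 1438931_s_at and 1454699_at, stood at -0.06 and -0.11. The transgenic arrays spread less widely than the wild type arrays at all 3 probe sets, with ranges in the order named of 0.28, 0.41 and 0.39 in transgenic glands and of 0.67, 1.18 and 0.94 in wild type glands. At each of the 3, wild type arrays 1 and 2 were the highest of their group and array 4 the lowest. Sesn3, a sestrin induced by FOXO factors, read 8.58, 8.68, 8.46 and 8.15 in transgenic and 8.97, 8.30, 8.75 and 8.53 in wild type glands, a change of -0.17 with a 95% interval from -0.52 to 0.17. The difference Sesn1 minus Sesn3 was 0.30 higher in transgenic glands, within the spread of arrays (two-sided exact permutation p = 0.257, also 0.257 adjusted over the 2 pairs).

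**Figure D2:**
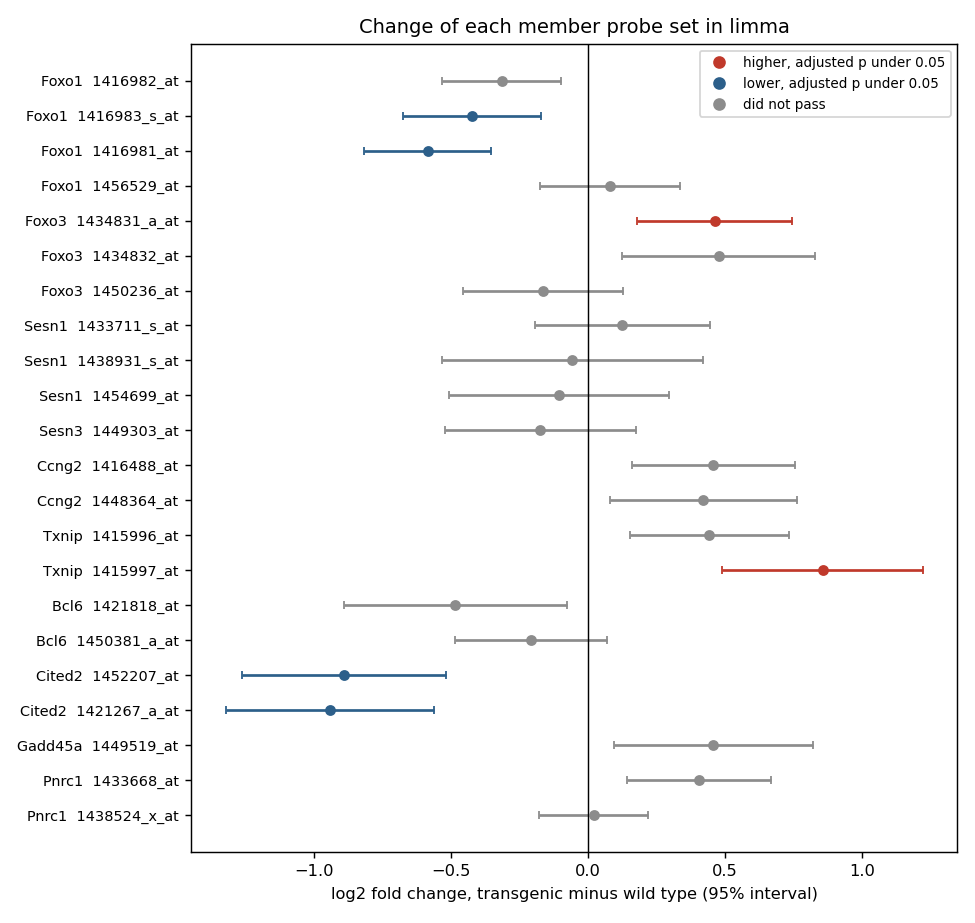
Log2 fold change, transgenic minus wild type (horizontal axis), of the 22 member probe sets with 95% intervals from limma, with rises past the threshold in red, falls in blue and the rest in grey. The coloured points are 2 Foxo1, 1 Foxo3, 1 Txnip and 2 Cited2 probe sets, and Sesn1 and Sesn3 intervals cross 0.

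Other genes known to be induced by FOXO factors also moved in both directions. The list was chosen with earlier results on these arrays known, so its counts are descriptive. Of 38 measured, 7 rose, 2 fell and 29 did not pass by the brightest probe set, against 5.99% of all genes higher and 4.98% lower, and the median log2 fold change was -0.07. Among the 29, Fbxo32 stood at -0.42, but 1 of its 2 probe sets passed as lower. Ddit4, an inhibitor of mTORC1, rose by 1.24 (adjusted p = 0.000812) and Bnip3, a mitophagy receptor, by 1.03 (adjusted p = 0.000647). Both are also known hypoxia-induced genes. Tsc22d3, the glucocorticoid-induced leucine zipper gene, averaged 8.13 ± 0.42 in transgenic and 9.55 ± 0.34 in wild type glands (SD, n = 4 each) and fell by 1.41 (adjusted p = 0.00134), with 3 of 3 probe sets lower. Pck1, the gluconeogenic enzyme gene, rose by 0.84 (adjusted p = 0.00191), but its means of 4.06 in transgenic and 3.21 in wild type glands lay below every array median and its other probe set stood at -0.01 (adjusted p = 0.966).

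Klf6, a Krüppel-like factor gene, rose by 0.89 (adjusted p = 0.0370) and Sod2, the mitochondrial superoxide dismutase gene, by 0.80 (adjusted p = 0.0358). For each, 1 of 3 probe sets passed, and the groups overlapped at that of Sod2. The other Klf6 probe sets stood at 0.56 and 0.30 (adjusted p = 0.0593 and 0.106). Those of Sod2 stood at 0.56 and 0.25 (adjusted p = 0.0640 and 0.259). The Klf6 call was lost without any 1 transgenic array or without wild type array 3 or 4, with changes from 0.67 to 0.97 and adjusted p up to 0.0949. The Sod2 call was lost without transgenic array 2, 3 or 4 or wild type array 3 or 4, with changes from 0.67 to 0.83 and adjusted p up to 0.114. Erbb3, a receptor gene that FOXO factors raise when PI3-kinase is blocked, rose by 0.39 (adjusted p = 0.0348), and Atg12, of the autophagy conjugation system, by 0.47 (adjusted p = 0.0138). The receptor gene Igf1r fell by 0.48 (adjusted p = 0.0246). These calls were made at 1 of 2 Erbb3, 1 of 3 Atg12 and 1 of 2 Igf1r probe sets. Irs2 and the cell cycle inhibitor gene Cdkn1b, both classic FOXO targets, stood at -0.47 (adjusted p = 0.0680) and -0.22 (adjusted p = 0.502). Erbb3, Atg12, Igf1r, Irs2 and Cdkn1b were picked after their values were seen.

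Of 6 genes that FOXO factors repress, 0 rose and 1 fell, against 11.0% of all genes called in either direction. This was Ccnd2, encoding cyclin D2, at 7.61 ± 0.23 in transgenic and 10.08 ± 0.22 in wild type glands (SD, n = 4 each), a log2 fold change of -2.48 (adjusted p = 1.47e-06) with 7 of 7 probe sets lower. Since Sesn1 and Gadd45a also answer to p53, 14 p53-induced genes were counted, and 2 rose while 1 fell, around a list median of -0.08 on the log2 scale, against 5.99% of all genes higher and 4.98% lower. Trp53inp1, an autophagy-linked stress gene, rose by 0.99 (adjusted p = 0.000106), while the growth inhibitor Btg2 rose by 0.55 (adjusted p = 0.0371) and Phlda3, an inhibitor of AKT, fell by 0.52 (adjusted p = 0.0375). A second probe set did not pass for Trp53inp1, at 0.36 (adjusted p = 0.235), or for Btg2, at 0.30 (adjusted p = 0.104). The Btg2 call was lost without transgenic array 2 or 4 or wild type array 1, 3 or 4, with changes from 0.52 to 0.60 and adjusted p up to 0.104. The Phlda3 call was lost without transgenic array 1, 2 or 3 or wild type array 2, 3 or 4, with changes from -0.57 to -0.42 and adjusted p up to 0.109.

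**Figure D3:**
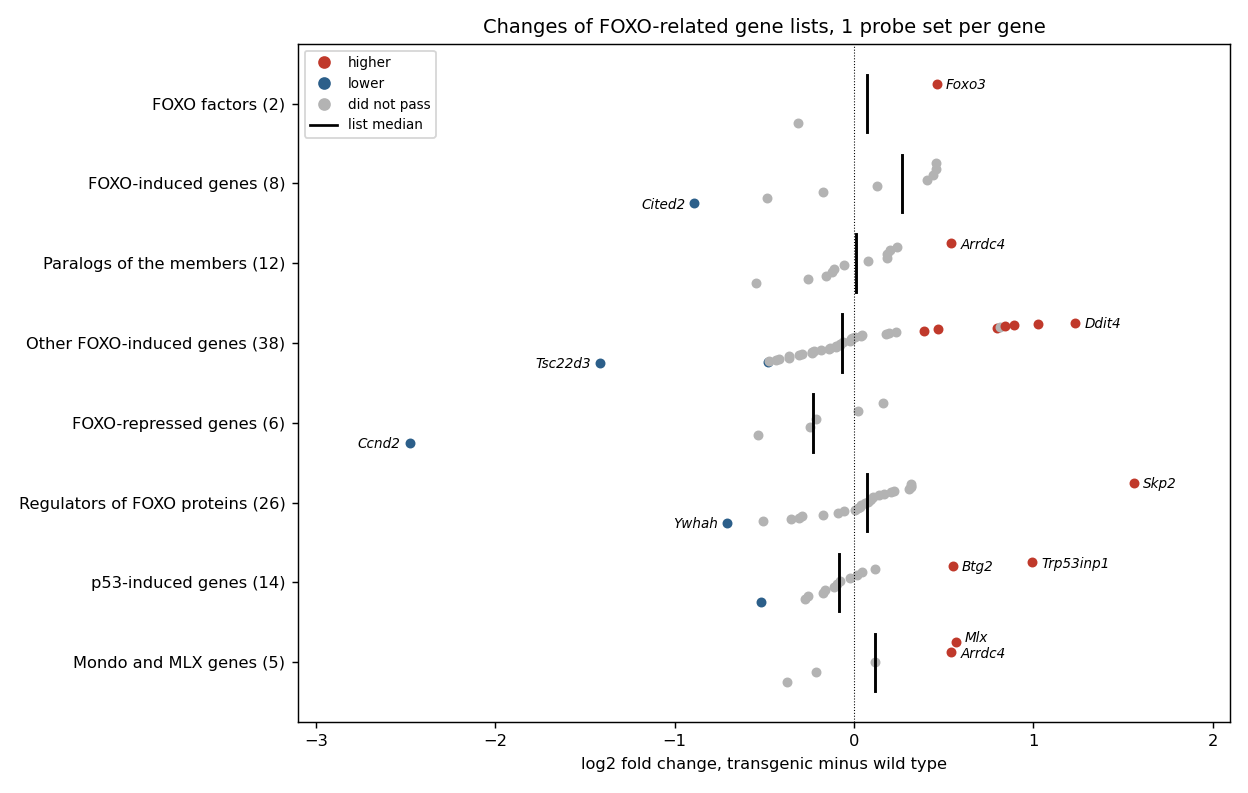
Log2 fold change, transgenic minus wild type (horizontal axis), of each gene of the FOXO factors, the FOXO-induced genes and 6 related lists, by the brightest probe set, with genes higher past the threshold in red, lower in blue and the rest in grey, and list medians as black bars (the number of genes is in brackets). List medians lie between -0.23 and 0.27, and Ccnd2 at -2.48 and Skp2 at 1.56 are the ends of the range.

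Levels of stromal markers were set beside the members. A stromal score, the mean of gene-centred log2 values of 24 smooth muscle and fibroblast markers, was -0.44, -0.27, -0.18 and -0.17 in transgenic glands and -0.19, 0.81, 0.32 and 0.13 in wild type glands. Wild type array 1 lay at the transgenic level, and the groups differed by -0.53 (two-sided exact permutation p = 0.0857, also 0.0857 adjusted over 2 array measures). With this score as a covariate, 0 member probe sets rose and 2 fell. Both were of Foxo1, at -0.73 ± 0.14 for 1416981_at and -0.65 ± 0.14 for 1416983_s_at (SE, adjusted p = 0.0178 and 0.0230). The log2 fold changes of Cited2 were -0.86 ± 0.25 and -0.98 ± 0.26 (SE, adjusted p = 0.0994 and 0.0618), close to those without the score and with larger standard errors. Those of Txnip were 0.22 ± 0.17 at 1415996_at and 0.77 ± 0.24 at 1415997_at (SE, adjusted p = 0.671 and 0.130), and the Foxo3 probe set 1434831_a_at stood at 0.30 ± 0.18 (SE, adjusted p = 0.523). Sesn3 stood at -0.52 ± 0.18 (SE, adjusted p = 0.170) with the score, against -0.17 without it. Of the other pathway genes past the threshold, Bnip3, Tsc22d3, Ddit4, Ccnd2, Skp2 and Trp53inp1 also passed with the score. Over all probe sets 992 passed with the score, against 2227 without it.

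**Figure D4:**
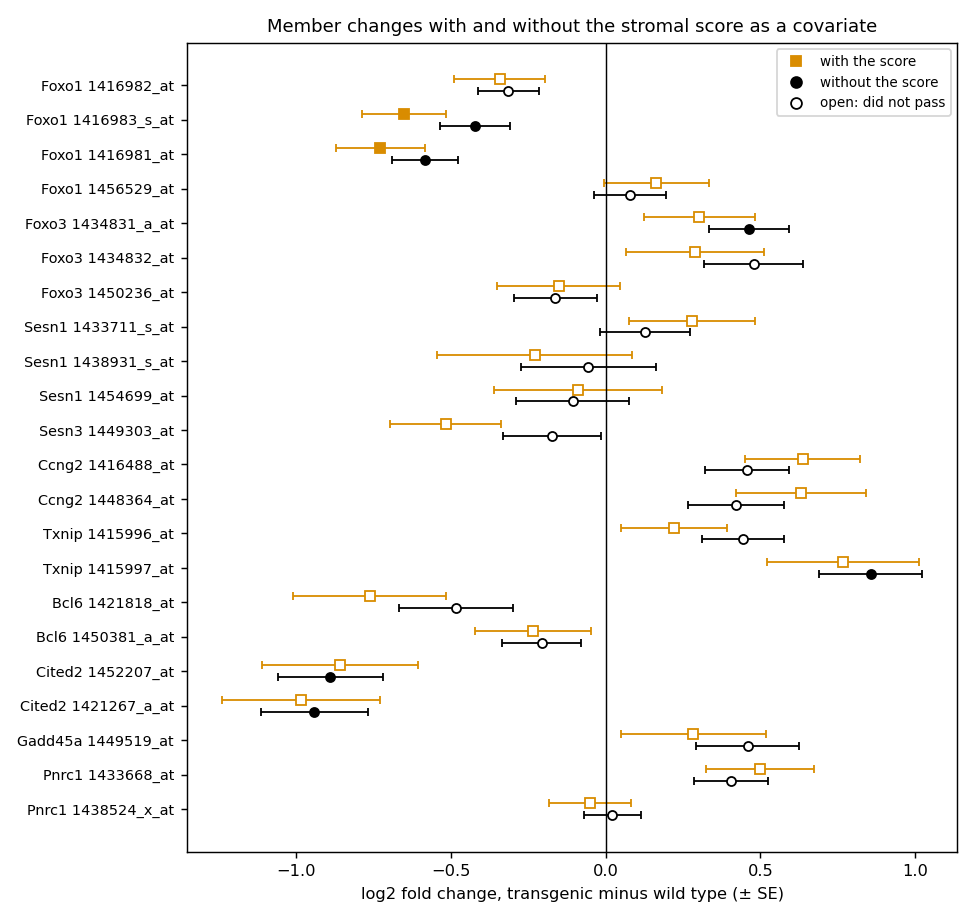
Log2 fold change, transgenic minus wild type, ± SE (horizontal axis), of the 22 member probe sets with the stromal score as a covariate (orange squares) and without it (black circles), with filled symbols past the threshold and open symbols not. With the score 2 Foxo1 probe sets remain filled, and the Cited2 points barely shift while their error bars widen.

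The summed level of a marker list is the log2 of the sum of its genes' linear values on an array. The smooth muscle markers had summed levels from 12.62 to 13.07 in transgenic and from 13.08 to 13.88 in wild type glands, and the fibroblast markers from 11.48 to 11.75 in transgenic and from 11.84 to 12.76 in wild type glands. The luminal markers had summed levels from 14.31 to 14.40 in transgenic and from 13.73 to 13.90 in wild type glands, and the basal markers from 9.62 to 9.96 in transgenic and from 10.38 to 10.52 in wild type glands. Immediate early genes, a possible sign of tissue handling, had 4 of 15 higher and 0 lower, against 5.99% of all genes higher and 4.98% lower, with summed levels from 11.41 to 11.71 in transgenic and from 10.79 to 11.29 in wild type glands. The 4 were Klf4, at 2.74, Dusp1, at 1.27, Jun, at 0.76, and Btg2, at 0.55, while Fos, Fosb, Egr1 and Egr2 were among those that did not pass. Gapdh and beta actin control probe sets for the 3 prime end exceeded those for the 5 prime end, a sign of RNA quality, by log2 values between 0.97 and 1.40 in transgenic and between 1.34 and 1.56 in wild type glands (p = 0.0571 by a two-sided exact permutation test, adjusted over the 2 measures p = 0.0857). The part of these in the members' changes was not tested. Markers of endothelium, T and NK cells and adipocytes gave 0 calls in limma among 10, 7 and 6 genes, with 1, 0 and 0 at an unadjusted p under 0.05. Of 10 macrophage markers 1 rose, Mrc1 by 2.27, and 0 fell. The fold changes of 7 of these 10 were negative, with a list median of -0.23 on the log2 scale.

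The genes most like Foxo1, Foxo3 and Cited2 over the 8 arrays were found by the root mean square difference of gene-centred log2 values, among 7055 genes of above-median mean. For Foxo1 these were Mrgprf, Psg19 and Fam193b, at 0.03, 0.03 and 0.04. For Foxo3 they were Nck2, Rpa3 and Gm12338, at 0.07, 0.08 and 0.09, and for Cited2 Ncoa4, Agrn and Col18a1, at 0.12, 0.13 and 0.14. With so many candidates and 8 arrays, such small differences describe the arrays only.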

How the data were processed

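RNA of ventral prostate from FVB mice, 4 transgenic and 4 wild type samples, was measured on 8 Affymetrix arrays. The authors deposited log2 values, made by RMA according to the submitters' processing notes; the software version is not given in the sources used here. Control probe sets (64 of 22690) were dropped. Gene names came from a platform annotation and were updated by gene identifier to RefSeq symbols, and 20380 probe sets had exactly 1.

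The fit used limma 3.58.1 (R 4.3.3; lmFit, eBayes) on the remaining 22626 probe sets, transgenic minus wild type, with Benjamini-Hochberg adjustment, a threshold of 0.05 and no filter on low values. Single measures were compared by two-sided exact permutation tests. The brightest probe set stands for a gene in lists. The members, lists and tests were chosen with earlier results of these data known. The naming rule takes all members and up to 6 called genes of each other list by size of change. It also takes the 3 genes most like Foxo1, Foxo3 and each other member called by its brightest probe set. Foxo4, Cited1, Akt1, Akt2, Sgk1 and Sgk3 were named after their values were seen. Alternatives were 2 renormalizations, filters on the dimmest 40% or 60%, a variance trend with robust prior, array weights, the replicate number as a block, the stromal score, leaving out shared probe sets, means over probe sets and leaving out each array. On simulated data of the 22626 probe sets, for transgenic against wild type with 200 changed, the fit recovered 25.4%, 82.1% and 98.5% of those changed by 0.5, 1 and 2 on the log2 scale, with 4 false calls among 141. In the data themselves 2227 probe sets passed, and the adjustment depends on how many change, so recovery there may differ.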

Additional observations from a re-analysis of the deposited data

Results flagged for a closer look

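Of 44 groups of 4 values (22 member probe sets in each group), 3 held an array set far apart from the other arrays of its group, where chance gives about 1 in 20. At the Txnip probe set 1415996_at, transgenic array 1 read 11.36 while the other transgenic arrays read 10.88 to 10.89. At the Foxo1 probe set 1416983_s_at, transgenic array 1 read 6.43, against 6.28 to 6.30 on the others. At the Ccng2 probe set 1416488_at, transgenic array 3 read 8.42, against 8.03 to 8.10 on the others. The other Txnip probe set, 1415997_at, did not set array 1 apart.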

How the results depend on the processing

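Of the 22 member probe sets, main counts were 2 higher and 4 lower, and by gene 1 and 1. Higher probe sets numbered 5 with array weights or the dimmest 40% or 60% left out. To the main calls, either filter added Ccng2 1416488_at, Txnip 1415996_at and Pnrc1 1433668_at. Array weights added Txnip 1415996_at, Gadd45a 1449519_at and Pnrc1 1433668_at. Higher probe sets numbered 1 with shared probe sets left out or with a trend and robust prior, and 0 with the stromal score. Lower ones numbered 2 with shared probe sets left out or with the score. Higher genes numbered 4 with array weights or either filter and 2 with cyclic loess or the replicate block. They numbered 0 with the trend or the score, and also with shared probe sets left out. Those left out included probe sets for several transcripts of 1 gene, among them the Foxo3 probe set that rose in the main fit. Its call, and those of 1 Foxo1 and 1 Cited2 probe set, were thus not tested under that setting. Lower genes numbered 2 with array weights or means of probe sets, and 0 with the score. All probe sets passing numbered 2227, against 3587 with array weights, 1380 with shared probe sets left out and 992 with the score, and of 95 listed genes 17 passed, against 27 with array weights and 6 with the score. Fewer probe sets were tested where some were left out; other causes were not tested. Leaving out each array gave 1 to 5 higher and 3 to 4 lower member probe sets, 0 to 4 higher genes and 1 lower, 1387 to 2525 of all probe sets and 9 to 20 listed genes. The difference Foxo1 minus Foxo3 ranged from -0.90 to -0.70 and was -0.57 with means of probe sets, and Sesn1 minus Sesn3 from 0.16 to 0.50.

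Signs turned only where no fit passed. Sesn1 turned to -0.012 with the mean of its probe sets, its probe set 1438931_s_at to 0.0026 under quantile normalization, and Pnrc1 1438524_x_at to -0.052 with the score. Leaving out each array ran 1456529_at of Foxo1 from -0.0039 to 0.142, the Sesn1 probe sets from -0.0076 to 0.217, from -0.223 to 0.169 and from -0.273 to 0.040, and the dim Pnrc1 probe set from -0.00086 to 0.061.

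The replicate numbers gave correlations of deviations of -0.31, 0.24, -0.20 and 0.33 over the 4 pairs. Of 8 arrays, 2 correlated best with their own number. With so few arrays, these values cannot tell whether arrays of equal number share anything beyond it. With the replicate block, 3 member probe sets rose and 4 fell, since Foxo3 1434831_a_at no longer passed (adjusted p = 0.0591) while Ccng2 1416488_at and Txnip 1415996_at did (adjusted p = 0.0465 and 0.0414), and 1797 of all probe sets passed. Precision is limited by 4 arrays a group, and 3 member probe sets had both means below every array median.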
